A study of Bos taurus with 9 samples.

Results

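Granulosa cells of cows at 60 days after calving were compared with the mean of 30 and 90 days, which asks which genes had a high or a low point at 60 days. The comparison took the 3 arrays titled 60 days and set them against the 6 arrays of the other days, 3 at 30 and 3 at 90 days, which are all 9 arrays of the series. The cows were Holstein-Friesian, and the cells came by ovum pick-up from dominant follicles, described as preovulatory, 42 hours after an injection of the prostaglandin PGF2alfa. Every cow in the study had calved and had been given that injection, so the groups differ by label only in the day. Each array held the RNA of its day in Cy5 and RNA of 120 days in Cy3. A value below is the log2 ratio to 120 days, given for replicates 1, 2 and 3 in that order. The difference between days is a difference of such ratios. No array had its dyes exchanged, and a dye effect that is the same on all arrays drops out of a difference between days. The labels call the replicates biological, and the sources used here do not say whether 1 array stands for 1 cow or for several. The array files were taken as named, but the columns of the authors' deposited value table did not match the arrays of the same name. For 3 of its 9 columns the closest ratio was that of 1 whole array, which was of the same day for 2 of them and of another day for 1. For the other columns the closest ratio joined channels of different arrays, which an exchange of names alone would not give. Whether names were also exchanged, in that table or among the arrays, cannot be told here. That table therefore does not settle the day of each array, on which every difference below rests.

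Granulosa cells line the follicle, surround the oocyte and turn thecal androgen into oestradiol under follicle-stimulating hormone. They also make inhibin, activin and anti-Müllerian hormone, lay down a basal lamina on their outer side, and gain the receptor for luteinising hormone as the follicle becomes dominant. Follicular fluid drawn through the vaginal wall can carry blood and immune cells, and the sources used here name no sorting step.

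No gene passed the test at 60 days. One limma fit over 38823 probes (14281 genes) called 0 probes (0%) at an adjusted p under 0.05 for 60 days against the mean of the other days, and the lowest adjusted p was 0.147. With the 120-day RNA as a block, its sets being inferred from the Cy3 signals after the data had been seen, 6 probes passed, among them both of TMSB4X. Against 30 days alone and against 90 days alone it also called 0 probes (0% each), with lowest adjusted p of 0.343 and 0.0619. Between 90 and 30 days, the days that were averaged, it again called 0 (0%). At an unadjusted p under 0.05 there were 5052 probes (13.0%), 2466 higher and 2586 lower at 60 days. The corresponding counts were 4729 probes (12.2%) against 30 days, 3802 (9.79%) against 90 days and 2128 (5.48%) between 90 and 30 days. Both comparisons with a single day share the 60-day arrays and are not independent.

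The 60-day arrays lay wholly above the 6 others for 420 genes (2.94%) and wholly below them for 649 genes (4.54%). Of these, 89 were at least 2-fold higher and 101 at least 2-fold lower. Of the 1848 genes at an unadjusted p under 0.05, 833 were higher (5.83%) and 1015 lower (7.11%) at 60 days, and 1840 had the same sign against each of the other days. The median difference over all genes was -0.03, with 6330 of the 14281 genes above 0 and 7951 below 0. These shares are the background for the counts in each gene group below, where "separate" means that the 3 arrays of 60 days did not overlap the 6 others. A value given with that word is the log2 difference of the contrast. It is not the gap between the nearest arrays, which can be far smaller. Every gene named below failed the adjusted test in the fit over all 9 arrays without a block, so its values describe these 9 arrays.

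Markers of cell types varied between arrays of the same day, and this touches most of what follows. Of 15 granulosa cell markers, 6 were separate and higher at 60 days (AMH, AMHR2, ESR2 and INHBA, and INHA and GATA4, which are named after their values were seen), 0 were separate and lower, and the median difference was 1.77. Their median on the 60-day arrays was 0.80, 1.11 and 1.01, against -1.67 to 0.44 on the others. Of 19 lymphocyte markers 7 were separate and lower and 0 higher, with a median of -1.62, -1.22 and -1.47 at 60 days and -0.89 to 1.53 on the other arrays. Of 14 macrophage and monocyte markers all 14 had a difference below 0, but 0 were separate, since 30 days replicate 1 had a median (-1.32) as low as the 60-day arrays (-0.98, -0.12 and -0.46). The macrophage median was highest on 30 days replicate 2 (2.48), 90 days replicate 1 (2.21) and 30 days replicate 3 (1.91). Those arrays also had the 3 lowest granulosa medians, at -1.67, -1.35 and -0.64. These 3 arrays are called macrophage-rich below. In each marker list every member was above background in Cy5 on at least 1 of the 9 arrays. In such bulk samples, fewer cells of a type and less RNA per cell cannot be told apart.

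Summed on the linear scale, the granulosa markers stood at log2 1.67 to 1.88 against 120 days on the 60-day arrays and at -1.0 to 1.36 on the others. The macrophage markers stood at -0.91 to -0.10 and at -1.30 to 3.05, the lymphocyte markers at -1.0 to -0.66 and at -0.60 to 1.46. Without the 3 arrays of highest macrophage median, the fit still called 0 probes, 1922 probes had an unadjusted p under 0.05, and 906 genes (6.34%) were separate and higher and 1230 (8.61%) separate and lower. The median difference shrank from 1.77 to 0.72 for granulosa markers, from -1.98 to -0.36 for macrophage markers and from -1.32 to -0.56 for lymphocyte markers. The 3 arrays were chosen by these macrophage markers and none is of 60 days. A smaller macrophage difference therefore follows from that choice. Of 141 genes named by rule, 137 kept their sign without those arrays, and 58 lost size by over 1.5 times or changed sign. The value without those 3 arrays is therefore given below for each gene that the results turn on. In that fit replicate 1 was the only array of 30 days, so it alone stood for that day. On it 29.8% of probes were above the control spots in Cy5, against 61.7% to 82.3% on the other arrays. In Cy3 the lowest share was 20.9%, on 60 days replicate 3, against 53.3% to 84.2% on the other arrays. The Cy3 threshold from the control spots was 800.2 on that 60-day array and 211.8 to 444.8 on the others. The part that markers of other cells have in these differences was not tested.

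**Figure D1:**
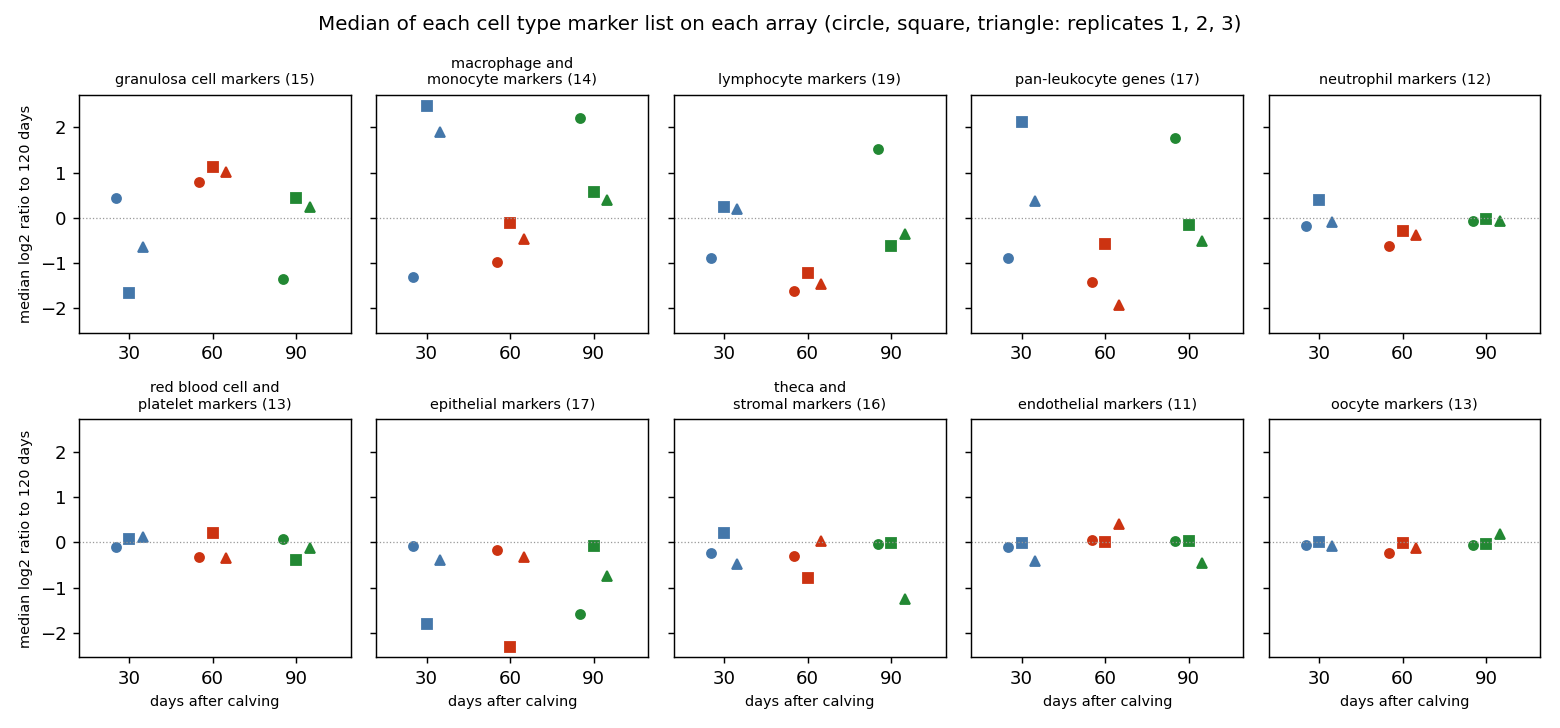
Median log2 ratio to 120 days (vertical axis) of 10 cell type marker lists on each of the 9 arrays, by days after calving, with the number of markers tested in brackets and 1 symbol per replicate. At 60 days the 3 granulosa medians lie between 0.80 and 1.11, above all other arrays, and the lymphocyte medians between -1.62 and -1.22, below all others, while the macrophage medians of 30 days spread from -1.32 to 2.48.

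COX4 apart, the genes of smallest p belonged to none of the lists. GNA11, a G protein alpha subunit that links receptors to phospholipase C, had ratios of 1.89, 1.60 and 1.78 at 60 days. At 30 days they were 0.62, 0.61 and 0.49, and at 90 days 0.74, 0.78 and 0.43. The 60-day arrays stood clear of the rest by more than the spread within any day, 2.21-fold higher (log2 1.14 ± 0.11 SE, n = 3 and 6 arrays, limma adjusted p = 0.147). The value was the same 1.14 without the 3 macrophage-rich arrays, and both of its probes were higher.

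CFD, complement factor D, the protease that starts the alternative complement pathway, had the lowest p of all. Its ratios were -3.25, -2.87 and -2.86 at 60 days, -1.21, -0.54 and -0.19 for 30 days and 1.22, 1.32 and 0.56 for 90 days. The 60-day arrays were the 3 lowest of 9 and no array of one day overlapped those of another. The level was 9.10-fold lower than the mean of the other days (log2 -3.19 ± 0.26, adjusted p = 0.147), by -2.35 against 30 days and -4.02 against 90 days. It was -2.86 without the macrophage-rich arrays. When 30 days replicate 1 was left out, CFD passed (log2 -3.33, adjusted p = 0.0499).

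TMSB4X encodes thymosin beta 4, an actin-binding peptide abundant in many cells, leukocytes among them. It had ratios of -1.91, -1.34 and -1.42 at 60 days. At 30 days they were -0.46, 0.20 and -0.03, and at 90 days 0.17, -0.11 and 0.13. Here 30 and 90 days coincided near the 120-day level and 60 days alone was low, 2.90-fold (log2 -1.54 ± 0.18, adjusted p = 0.201, and -1.33 without the macrophage-rich arrays). Both probes were lower, and both passed with the 120-day RNA as a block (-1.54 each, adjusted p = 0.0424 and 0.0480). On 4 arrays the spot of its brighter probe exceeded 80% of the brightest spot in both dyes.

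COX4, listed by its older symbol and now COX4I1, a nuclear-encoded subunit of cytochrome c oxidase, had ratios of -0.83, -0.85 and -0.95 at 60 days. It had -0.48, -0.55 and -0.24 for 30 days and 0.28, 0.29 and 0.34 for 90 days. The difference was small but even, 1.76-fold lower (log2 -0.82 ± 0.08, adjusted p = 0.147, and -0.79 without the macrophage-rich arrays). The 90-day arrays were above the 30-day arrays as well, so the gap to 90 days (-1.18) was wider than that to 30 days (-0.46).

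The other genes among the 5 smallest p in each direction had smaller differences. CYP4F3 (a cytochrome P450 symbol), ZNF536 (a zinc finger protein), TMEM161A (a membrane protein) and ARF5 (a small GTPase of vesicle traffic) were 2.02-, 2.25-, 2.20- and 1.82-fold higher, with adjusted p of 0.200 to 0.224. Without the macrophage-rich arrays their log2 differences were 1.06, 0.98, 1.02 and 0.92, against 1.02, 1.17, 1.14 and 0.87 with them. The ZNF536 spot was above background in Cy5 on 3 of 3 arrays at 60 days and on 2 of the other 6, and TMEM161A was higher by 2 of its 3 probes. DNAJC12, a J domain co-chaperone, was 1.48-fold lower (log2 -0.57 ± 0.08), with 60-day values of -0.84, -0.86 and -0.91 and a range of -0.43 to -0.20 elsewhere. KRCC1, a little-studied gene, was 2.00-fold lower (log2 -1.0 ± 0.14), and both had an adjusted p of 0.224.

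**Figure D2:**
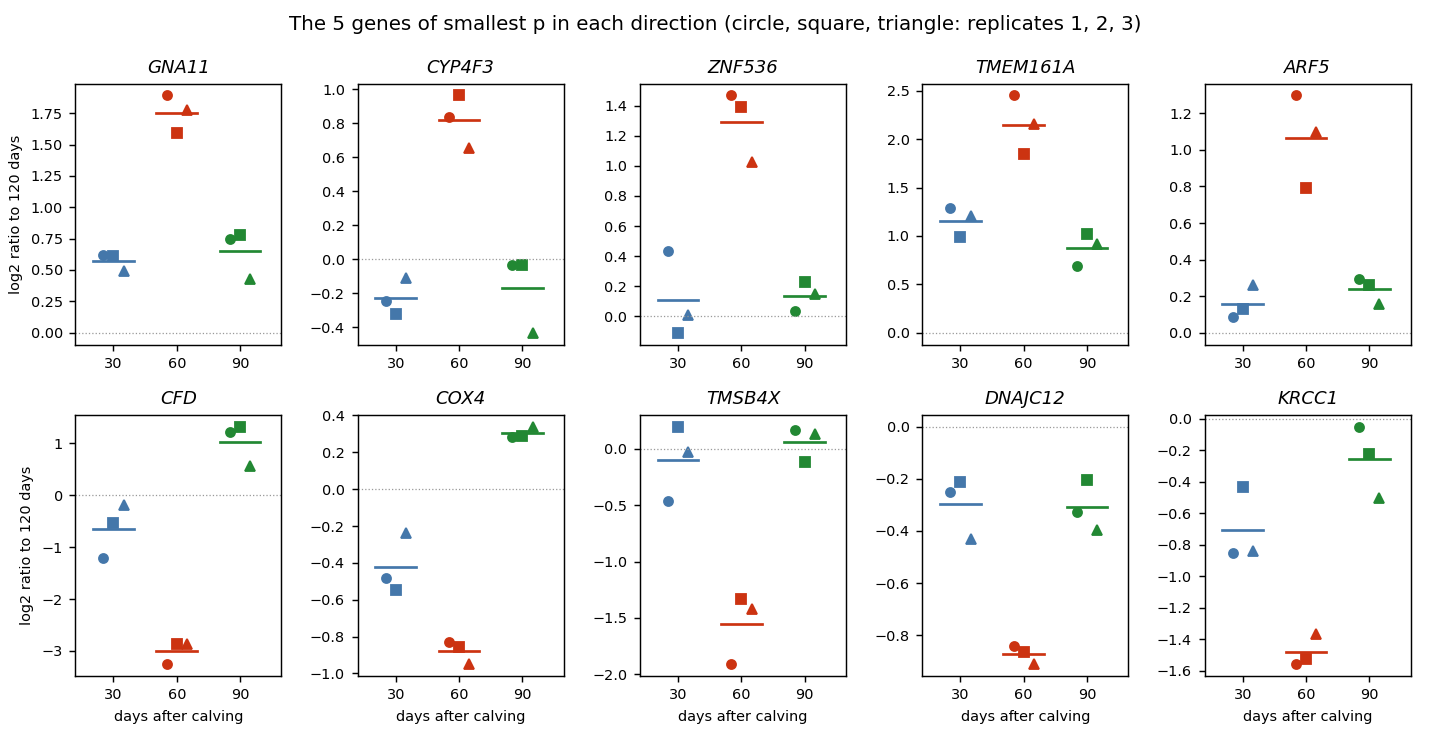
Log2 ratio to 120 days (vertical axis, own scale per panel) by days after calving for the 5 genes of smallest p in each direction, with 1 symbol per replicate array and a bar at the mean of each day. In each panel the 3 arrays of 60 days lie on one side of the 6 others, from GNA11 (1.60 to 1.89 against 0.43 to 0.78) to KRCC1 (-1.56 to -1.37 against -0.85 to -0.05), and CFD and COX4 also differ between 30 and 90 days.

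Among the hormones of the AMH, inhibin, activin and BMP group, 7 of 29 members were separate and higher, 0 separate and lower, and the median difference was 0.55 (0.28 without the macrophage-rich arrays). AMH, the anti-Müllerian hormone that restrains the recruitment and FSH response of follicles, had ratios of 3.08, 2.93 and 2.33 at 60 days. It had 1.14, -0.69 and -0.48 for 30 days and -0.49, 1.26 and 0.52 for 90 days. All 3 arrays of 60 days exceeded the highest other array by over 1 log2 unit, for a 5.93-fold difference (log2 2.57 ± 0.51, adjusted p = 0.257, and 1.76 without the macrophage-rich arrays).

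Its type II receptor AMHR2 ran the same way at a lower level, with 0.98, 0.56 and 1.56 at 60 days. It had 0.35, -0.33 and -0.08 for 30 days and -0.15, -0.00 and -0.06 for 90 days, and its Cy5 spots were above background on 3 of 3 arrays at 60 days and on 2 of the other 6. The difference was 2.12-fold (log2 1.08 ± 0.23, adjusted p = 0.264, and 0.88 without the macrophage-rich arrays). Hormone and receptor were therefore both separate and higher at 60 days in these arrays, and neither passed.

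INHBA, the beta A subunit shared by activin A and inhibin A, had even values at 60 days, 2.54, 2.29 and 2.83. Its other arrays were far apart, at 1.06, -3.31 and -4.17 for 30 days and -2.18, 1.90 and 0.13 for 90 days. The lowest of these were the 3 macrophage-rich arrays. The difference of 12.5-fold (log2 3.65 ± 1.28, adjusted p = 0.339) came to log2 1.52 without them. LTBP1, which stores latent TGF-beta in the matrix, differed by 1.81 ± 0.53 (1.05 without those arrays) and overlapped the other days. INHA, the alpha subunit of inhibin, was also separate, as were the receptor BMPR2 and the signal messenger SMAD2 (3.67 ± 1.47, 0.84 ± 0.25 and 1.10 ± 0.40), all named after their values were seen. Without those arrays these 3 differences were 1.25, 0.60 and 0.51. ID2, a target of BMP signals that blocks helix-loop-helix factors, differed by log2 0.43 ± 0.11 (0.40 without those arrays). It was separate only narrowly, with a lowest 60-day value of 0.009 and a highest other value of -0.021.

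Of 20 genes of gonadotrophin action and steroid synthesis, 3 were separate and higher, 1 separate and lower, and the median difference was 0.19 (0.36 without the macrophage-rich arrays). LHCGR, the receptor for luteinising hormone, had ratios of 2.78, 2.08 and 2.70 at 60 days. At 30 days they were 1.56, 0.27 and 0.10, and at 90 days 0.02, 1.21 and 0.07. The 60-day arrays were the 3 highest, 3.95-fold above the mean of the others (log2 1.98 ± 0.41, adjusted p = 0.258, 1.42 without the macrophage-rich arrays), and both probes were higher. Its 120-day spot was above background on 2 of 3 arrays at 60 days and 1 of the other 6, so the denominators of these ratios were near background.

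ESR2, the oestrogen receptor beta of granulosa cells, had 0.36, 0.71 and 0.51 at 60 days and -0.00 to 0.24 on the other arrays (log2 0.43 ± 0.09, adjusted p = 0.264, and 0.41 without the macrophage-rich arrays). NR5A1, the steroidogenic factor that drives many genes of the pathway, differed by log2 0.29 ± 0.11 (0.30 without those arrays). It was separate, with a lowest 60-day value of -0.0099 and a highest other value of -0.069. STARD3, a late endosomal cholesterol carrier named after its values were seen, was the gene separate and lower (-0.20 ± 0.13, and -0.085 without those arrays).

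For the steroid enzymes named here the days overlapped. CYP19A1, the aromatase that makes oestradiol, had 0.64, 2.56 and 0.87 at 60 days. It had -0.82, -4.40 and -4.52 for 30 days and -3.96, 1.72 and 0.74 for 90 days. The difference of log2 3.23 ± 1.42 (adjusted p = 0.394) came from arrays that overlapped, and it was 1.15 without the 3 macrophage-rich arrays, which were the 3 lowest. CYP11A1, which cleaves the side chain of cholesterol, differed by 2.35 ± 0.87 (adjusted p = 0.347, 1.05 without those arrays). HSD3B1, the next enzyme on the way to progesterone, had -0.67, 3.90 and 2.09 at 60 days and differed by 2.57 ± 1.03 (adjusted p = 0.366, 1.91 without those arrays).

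STAR carries cholesterol into the mitochondrion and marks luteinising cells. Its 60-day arrays alone spread from -3.96 to -0.15, with -1.04 between them, and it differed by 0.03 ± 0.86 (adjusted p = 0.994, 1 of 3 probes higher, and 0.78 without the macrophage-rich arrays). FSHR, the receptor for follicle-stimulating hormone, differed by 1.36 ± 0.61 (adjusted p = 0.404, 0.72 without the macrophage-rich arrays).

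Of 25 genes of the extracellular matrix 6 were separate and higher at 60 days (24.0% of the list, against 2.94% of all genes), and 0 were separate and lower. The list median was -0.10, and 0.23 without the macrophage-rich arrays. VCAN, the large proteoglycan versican that binds hyaluronan in the follicle, had 2.20, 2.60 and 1.68 at 60 days. It had 0.83, 0.83 and 0.47 for 30 days and 0.13, 0.75 and -0.15 for 90 days. The 60-day values were 3.21-fold higher with no overlap (log2 1.68 ± 0.26, adjusted p = 0.233, and 1.59 without the macrophage-rich arrays).

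Type IV collagen forms the sheet of a basal lamina, and its alpha 1 and alpha 2 chains assemble together. COL4A2 had 2.48, 1.52 and 2.00 at 60 days, against 0.31, 0.04 and 0.13 for 30 days and 0.02, 1.01 and 0.09 for 90 days. The gap was 3.32-fold (log2 1.73 ± 0.28, adjusted p = 0.239, and 1.57 without the macrophage-rich arrays). Its Cy5 spot was above background on 3 of 3 arrays at 60 days and on 2 of the other 6.

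COL4A1 had 1.82, 1.61 and 2.78 at 60 days. It had 0.58, -1.38 and -1.62 for 30 days and -1.49, 0.09 and -1.90 for 90 days, for an 8.13-fold difference (log2 3.02 ± 0.64, adjusted p = 0.258, and 2.23 without the macrophage-rich arrays). The paired chains thus both stood above every array of the other days. LAMB2, the laminin beta 2 chain of the same lamina, had 2.63, 2.01 and 1.67 at 60 days and -0.34 to 1.59 elsewhere (log2 1.65 ± 0.48, adjusted p = 0.311, and 0.89 without those arrays). LAMA1, the laminin alpha 1 chain, and CHPF, an enzyme of chondroitin chains, were the other separate members (3.34 ± 1.11 and 2.54 ± 0.84, and 1.60 and 1.18 without those arrays), named after their values were seen.

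The stromal collagens had values below 0 with wide spread. COL1A2 differed by -2.52 ± 1.44 and COL3A1 by -1.64 ± 1.65 (adjusted p = 0.493 and 0.714). Without the macrophage-rich arrays they differed by -0.81 and -0.36. Both are also among 16 theca and stromal markers, whose median difference was -0.17 (0.05 with median centring, and -0.02 without those arrays). One member of that list, TCF21, a transcription factor of mesenchymal cells, was separate and higher. Its values were 2.08, 3.70 and 2.74 at 60 days, 0.12, 0.43 and -0.14 for 30 days and 0.08, 1.37 and 1.16 for 90 days. That is 5.05-fold (log2 2.34 ± 0.41, adjusted p = 0.239, and 2.15 without the macrophage-rich arrays). Of 11 endothelial markers 0 were separate, and their median difference was 0.06.

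In cholesterol synthesis 18 of 21 members had a difference above 0 and 2 were separate and higher, with a median of 0.54 (0.24 without the macrophage-rich arrays). HMGCS1, which makes the HMG-CoA that enters the pathway, had 0.99, 1.26 and 1.96 at 60 days. It had 0.26, -2.07 and -2.59 for 30 days and -2.6, 0.15 and -0.97 for 90 days (log2 2.71 ± 0.78, adjusted p = 0.308, 3 of 4 probes higher). The 3 lowest arrays were the macrophage-rich ones, and without them the difference was 1.48. FDFT1, the squalene synthase, was the other separate gene (1.37 ± 0.52, and 0.53 without those arrays), and it was named after its values were seen. INSIG1, the sterol sensor of the endoplasmic reticulum, differed by 0.93 ± 0.31, the isomerase IDI1 by 1.32 ± 0.46 and the sterol dehydrogenase NSDHL by 1.10 ± 0.40, all with overlap. Without those arrays these were 0.51, 0.68 and 0.93.

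Of 32 genes of the mitotic cell cycle 9 had an unadjusted p under 0.05 and were higher (28.1%, against 5.83% of all genes), and 3 were separate and higher. The median difference was 0.42, and 0.49 without the macrophage-rich arrays. TOP2A, the topoisomerase that untangles chromosomes, had 0.75, 0.62 and 0.83 at 60 days and -0.04 to 0.53 on the other arrays. It was 1.39-fold higher (log2 0.48 ± 0.11, adjusted p = 0.273, and 0.45 without those arrays). UBE2C, the ubiquitin enzyme of the anaphase-promoting complex, had 0.59, 1.24 and 1.54 at 60 days and a highest other value of 0.47 (log2 1.11 ± 0.32, adjusted p = 0.308, and 1.04 without those arrays). NUSAP1, a spindle protein, differed by 0.69 ± 0.21 with overlap. PRC1, a protein of the central spindle, was the other separate gene (1.29 ± 0.49), and it was chosen after its values were seen. Of 27 DNA replication genes 0 were separate and higher and 1, the helicase subunit MCM2, was separate and lower (log2 -0.67 ± 0.26, though 1 of its 3 probes was higher), with a list median of 0.01 (-0.06 without background correction, and 0.12 without those arrays). The MCM2 separation was nearly a tie, with -1.009 for 60 days replicate 3 and -1.007 for 90 days replicate 3.

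**Figure D3:**
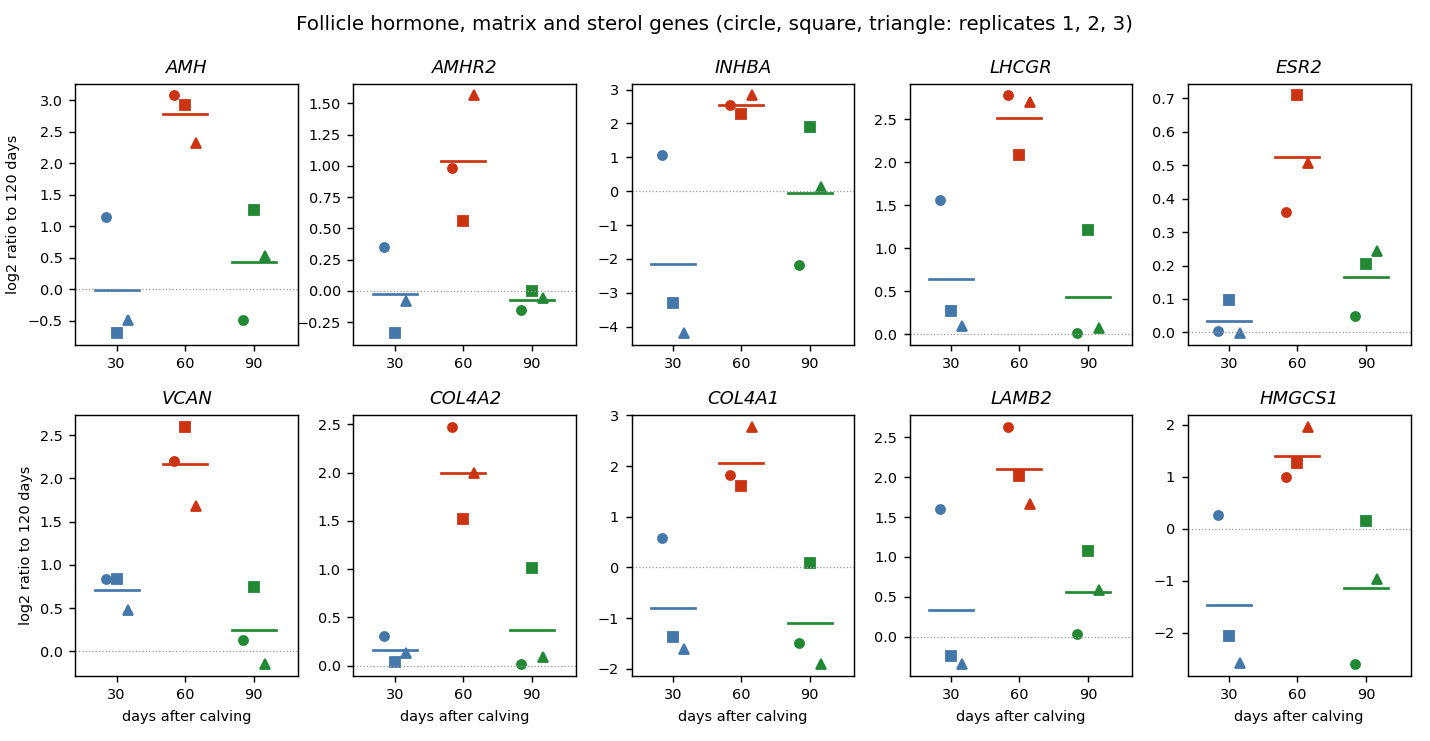
Log2 ratio to 120 days (vertical axis, own scale per panel) by days after calving for follicle hormone and receptor genes, matrix genes and a sterol gene, with 1 symbol per replicate array and a bar at the mean of each day. The 60-day arrays lie above all others in each panel, closely grouped for INHBA (2.29 to 2.83) while its other arrays run from -4.17 to 1.90, and VCAN and COL4A2 show a narrower spread on the other days.

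Of the 30 lists, that of lymphocyte markers held the highest share of genes separate and below the other days (36.8%, against 4.54% of all genes). LCK, the kinase next to the T cell receptor, had -3.18, -2.21 and -2.51 at 60 days. It had -1.69, 1.16 and 1.54 for 30 days and 2.19, -0.68 and -0.39 for 90 days (log2 -2.99 ± 0.90, adjusted p = 0.315). The highest arrays were the macrophage-rich ones, and without them the difference was -1.52, still with 60 days lowest. CD3E and CD247, chains of the T cell receptor complex, were separate as well, by -2.88 ± 0.90 and -1.35 ± 0.46 (-1.44 and -0.85 without those arrays). CD3D differed by -2.17 ± 0.74 (-1.05 without those arrays) and overlapped, and ZAP70, CD4, CD8B and CD5, named after their values were seen, completed the separate markers. The first 3 of these differed by -2.09 ± 0.72, -2.34 ± 0.85 and -2.07 ± 0.88 (-1.04, -1.24 and -0.95 without those arrays). CD5 was not well above background in Cy5 on any array at 60 days and on only 3 of the other 6, so its difference has no firm size. GZMB, the granzyme B of killer cells and a bright marker of the list, differed by 0.01 ± 0.67 (1 of 2 probes higher), so not all of these markers were low at 60 days.

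Macrophage markers were low at 60 days against the mean but not separate. AIF1, a calcium-binding protein of macrophages, had -4.35, -1.04 and -4.29 at 60 days. It had -3.60, 2.46 and 0.54 for 30 days and 3.27, -0.55 and 0.90 for 90 days, so that 60 and 30 days overlapped (log2 -3.73 ± 1.52, adjusted p = 0.368, and -1.51 without the macrophage-rich arrays). The lysosomal protease CTSS went from -2.51 ± 1.15 to -0.62 when those arrays were left out. LYZ, lysozyme, differed by -2.86 ± 1.64 (-1.06 without them). Of 17 genes shared by all leukocytes 0 were separate and the median difference was -2.61 (-0.78 without those arrays). CD53, a leukocyte tetraspanin, differed by -3.75 ± 1.25 (adjusted p = 0.332, and -1.93 without those arrays).

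Of 12 neutrophil markers 3 were separate and lower. S100A9, a calcium-binding protein abundant in neutrophils and monocytes, had -3.74, -2.76 and -3.36 at 60 days. It had -2.28, 0.33 and -0.57 for 30 days and -2.50, -0.03 and -0.05 for 90 days (log2 -2.44 ± 0.74, adjusted p = 0.316). Here the difference was of like size without the macrophage-rich arrays, at -2.13. CAMP, a cathelicidin peptide gene, differed by -0.23 ± 0.07. MPO, myeloperoxidase, was not well above background on any 60-day array and on only 2 of the other 6, which gives a bound of at least 1.09-fold lower (adjusted p = 0.367). LTF, lactoferrin, ran from -4.53 to 1.64 within 60 days and differed by 0.25 ± 1.28.

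Of 30 interferon response genes, 29 had a difference below 0, 4 were separate and lower and 0 higher, with a median of -0.72 (-0.48 without the macrophage-rich arrays). IFIH1, the sensor MDA5 of double-stranded RNA, had -1.93, -2.56 and -2.0 at 60 days. It had -1.09, -0.12 and -0.95 for 30 days and -0.28, -0.62 and -0.57 for 90 days. It was 2.96-fold lower without overlap (log2 -1.56 ± 0.25, adjusted p = 0.239), and -1.33 without those arrays. PSMB8, a subunit of the immunoproteasome, had -1.79, -1.67 and -1.65 at 60 days and -0.88 to 2.56 elsewhere (log2 -2.38 ± 0.62, adjusted p = 0.296, and -1.49 without those arrays).

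HERC6, an interferon-induced ubiquitin ligase, had -1.74, -2.28 and -2.28 at 60 days. It overlapped the lowest 30-day array (-1.87) and differed by -1.06 ± 0.23 (adjusted p = 0.272, and -1.14 without those arrays). USP18, the protease that removes ISG15, was separate by -0.29 ± 0.08. IRF1, a transcription factor induced by interferon gamma and named after its values were seen, was the other separate gene (-0.73 ± 0.34, and -0.39 without those arrays). The gene with a value above 0, listed as ISG12(A), had 0.19.

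Antigen presentation had a median difference of -1.52 over 17 genes, and -0.62 without the macrophage-rich arrays. The class II genes BOLA-DYA and BOLA-DQA5 were separate and lower (log2 -1.35 ± 0.41 and -1.52 ± 0.49, and -0.80 and -0.88 without those arrays). They belong to a family of similar genes whose transcripts a probe may not tell apart. CD74, the invariant chain, differed by -2.72 ± 0.90 and overlapped (-1.35 without those arrays). B2M, the light chain of class I molecules, differed by -1.83 ± 0.53 (-1.15 without those arrays), but 1 of its 2 probes was higher at 60 days. On 5 arrays the B2M spot exceeded 80% of the brightest spot in both dyes. Of 29 chemokines and interleukins 5 were separate and lower, with a median of -0.81 (-0.26 without the macrophage-rich arrays). IL10, an anti-inflammatory interleukin, was separate by -0.45 ± 0.08 (adjusted p = 0.239, and -0.41 without those arrays). Its spot was dim, with a mean log2 brightness over both dyes of 7.62, against 7.67 for MPO. In Cy5 it was above background on 3 of 3 arrays at 60 days and on 5 of the other 6. The other separate members were IL2RG, IL1A, IL6 and CCL20, named after their values were seen, and the first 3 of these differed by -1.12, -1.69 and -0.81 (-0.63, -0.55 and -0.16 without those arrays). CCL20 was not well above background in Cy5 on any array at 60 days and on only 1 of the other 6, and was at least 1.02-fold lower (adjusted p = 0.408). The chemokines CXCL16 and CXCL10 and the receptor CXCR4 differed by -1.35, -1.15 and -2.41 and overlapped (-0.71, -1.03 and -1.12 without those arrays).

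All 61 cytosolic ribosomal protein genes had a difference below 0, 25 of them with an unadjusted p under 0.05 (41.0%, against 7.11% of all genes). The 3 that were separate and lower made up 4.92% of the list, close to the 4.54% of all genes. The common direction of the 61 genes rests on the normalisation: with the arrays centred on their medians in place of loess, 34 were below 0 and 27 above, and the list median of -0.41 became -0.09. It also leans on single arrays, with a median of -0.16 without 60 days replicate 3 and -0.65 without 60 days replicate 2. These are among the brightest spots, and 37 of the 61 exceeded 80% of the brightest spot of the array in both dyes on at least 1 array. RPLP1, a stalk protein of the large subunit, had -1.52, -0.97 and -1.93 at 60 days, -0.39, -0.84 and -0.46 for 30 days and 0.22, -0.30 and 0.10 for 90 days (log2 -1.20 ± 0.23, adjusted p = 0.251). The day with the highest values was 90 and not 30. That held more so for RPS10, whose 90-day values of 2.54, 1.78 and 2.31 set it apart, while 60 and 30 days differed by -0.27 and the contrast by -1.49 ± 0.37. RPL26 and RPS16, named after their values were seen, were the other separate genes (-0.56 ± 0.17 and -0.24 ± 0.10). Ribosomal protein genes have many processed copies in the genome, and probes may share them.

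Some metabolic genes were likewise far from 90 days and near 30 days. SDHC, a membrane anchor of succinate dehydrogenase, had -1.59, -1.31 and -1.34 at 60 days and -1.18, -1.42 and -1.11 at 30 days, which overlapped. At 90 days it had -0.02, -0.21 and 0.15, so the difference of -0.78 ± 0.12 (adjusted p = 0.233) was -0.17 against 30 days and -1.39 against 90 days. PLIN3, a coat protein of lipid droplets, had 2.22, 2.02 and 1.84 at 90 days and differed at 60 days by 0.05 from 30 days and by -1.09 from 90 days. For SDHC and PLIN3 the 60-day arrays overlapped those of 30 days.

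The respiratory chain and citric acid cycle had a median of -0.03 over 41 genes, with 1 separate in each direction. Centring on array medians in place of loess turned that median to 0.32. NDUFS3, a core subunit of complex I, was the higher one (log2 1.01 ± 0.31, adjusted p = 0.316, and 0.61 without the macrophage-rich arrays), and COX4 the lower. PFKM, the muscle form of phosphofructokinase, differed by 1.5 ± 0.41 (adjusted p = 0.299, and 0.98 without the macrophage-rich arrays) with overlap, and 0 of 22 glycolysis genes were separate.

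SAT1, which acetylates spermidine and spermine for export, had -3.27, -3.11 and -4.32 at 60 days. It had -2.91, -1.42 and -2.50 for 30 days and -0.58, -1.15 and -0.39 for 90 days. It was 4.22-fold lower (log2 -2.08 ± 0.40, adjusted p = 0.253, all 4 probes lower, and -1.73 without the macrophage-rich arrays). SMS, the spermine synthase, differed by -0.82 ± 0.23 with overlap. GCLM, the regulatory subunit of glutathione synthesis, was separate and higher by 0.69 ± 0.20 (0.47 without those arrays).

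Among 28 immediate early genes 2 were separate and lower (7.14%, against 4.54% of all genes) and 0 higher, with a median of -0.55. SGK1, a kinase induced by glucocorticoids and FSH, had -2.75, -2.54 and -2.55 at 60 days. It had -1.56, 1.14 and -0.83 for 30 days and -1.04, -0.67 and -1.33 for 90 days (log2 -1.90 ± 0.53, adjusted p = 0.307, and -1.33 without the macrophage-rich arrays). KLF6, a zinc finger factor, was the other separate gene (log2 -0.85 ± 0.33, and -0.45 without those arrays). FOS differed by -1.43 ± 0.61 with overlap, and its lowest array was 60 days replicate 2 (-3.11).

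The ovulatory response list was split, with a median of 0.02 over 19 genes (-0.03 with median centring, and -0.05 without the macrophage-rich arrays). VCAN, described above, was the separate gene above the other days. VNN2, a vanin that is also expressed by leukocytes, was the separate gene below them, with -6.39, -5.35 and -5.44 at 60 days. It had -3.71, -0.33 and -4.60 for 30 days and -3.91, -1.06 and -1.37 for 90 days (log2 -3.23 ± 1.04, adjusted p = 0.323, and -3.26 without the macrophage-rich arrays). TNFAIP6, which cross-links hyaluronan in the expanding cumulus, had -1.22, 3.56 and 2.27 at 60 days and differed by 2.94 ± 1.09 with overlap. Of 16 genes of the BCL2 family and cell death, 2 were separate and lower (12.5%, against 4.54% of all genes). BCL2A1, a survival protein of blood cells, differed by -2.41 ± 0.66 (-1.66 without those arrays). BCL2L1 differed by -0.43 ± 0.21 (-0.21 without those arrays), although 1 of its 3 probes was higher. The BCL2L1 separation was nearly a tie, with -0.204 for 60 days replicate 1 and -0.201 for 30 days replicate 1.

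**Figure D4:**
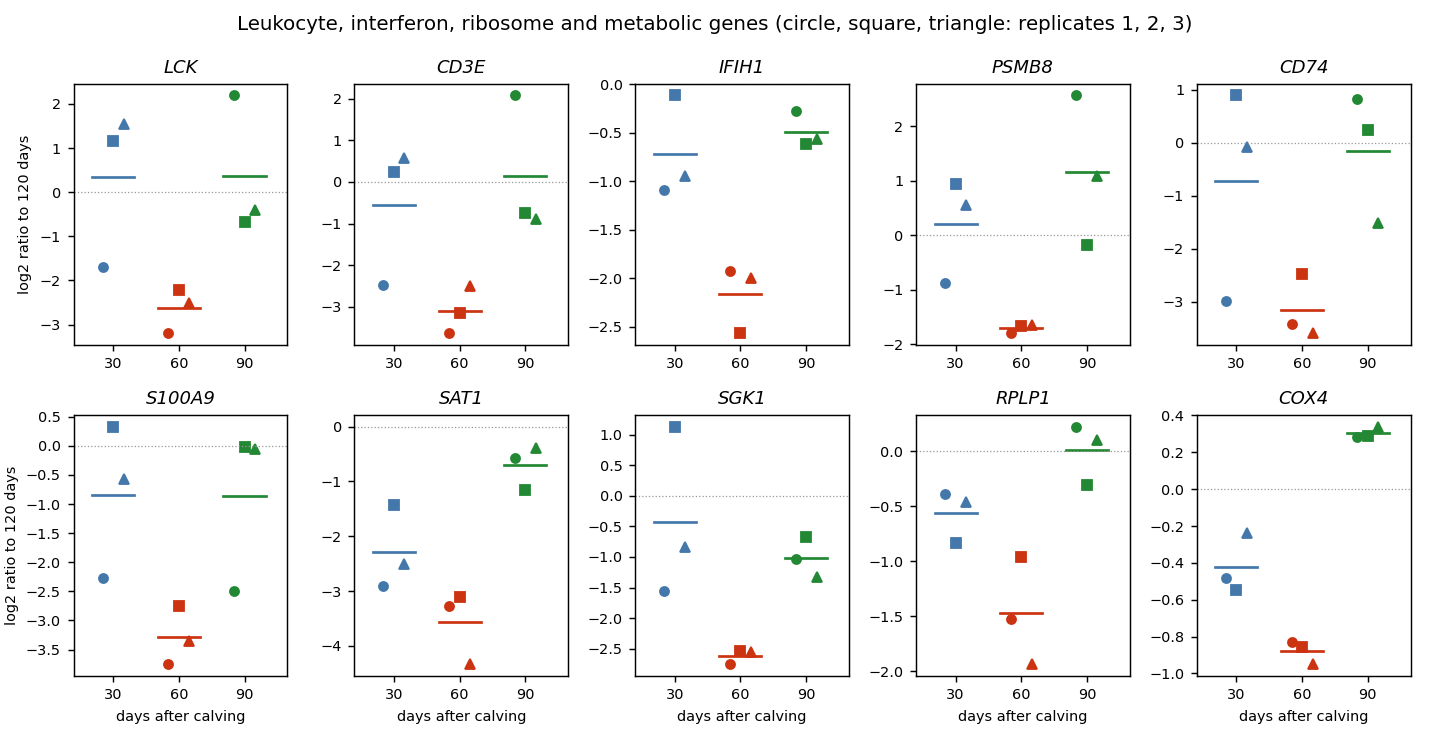
Log2 ratio to 120 days (vertical axis, own scale per panel) by days after calving for leukocyte, interferon, ribosomal and metabolic genes, with 1 symbol per replicate array and a bar at the mean of each day. For IFIH1 the 60-day arrays (-2.56 to -1.93) lie below the others (-1.09 to -0.12), whereas for CD74 30 days replicate 1 (-2.98) lies among the 60-day arrays.

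Growth factor genes that are often followed after calving showed little. IGF1 had -0.14, 0.12 and -0.18 at 60 days, -0.17, 0.00 and -0.04 for 30 days and 0.38, -0.13 and -0.12 for 90 days, a difference of -0.05 ± 0.14 (adjusted p = 0.908). VEGFA, the endothelial growth factor, differed by 0.36 ± 0.23 (adjusted p = 0.543, 1 of 2 probes higher). In the IGF and metabolic receptor list of 20 genes 1 was separate, PAPPA, the protease that frees IGF from its binding proteins, by 0.25 ± 0.09. PGF, the placental growth factor, was the separate one of 15 angiogenesis genes. It had 1.77, 1.26 and 2.1 at 60 days and differed by 2.11 ± 0.81 (adjusted p = 0.354, and 1.02 without the macrophage-rich arrays).

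CREB3L2, a membrane-bound factor of the secretory stress response, was separate and higher by 1.36 ± 0.50, and by 1.90 without the macrophage-rich arrays. It was the separate one of 27 genes of the unfolded protein and heat shock responses, whose median was 0.06. Among 23 genes of fatty acid oxidation and lipid storage, PNPLA2, the triglyceride lipase, was separate and higher (0.77 ± 0.29), and CD36, a fatty acid carrier, and FABP5, a fatty acid binding protein, separate and lower (-0.45 ± 0.14 and -2.07 ± 1.04). FABP5 came to -0.38 without the macrophage-rich arrays.

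Of 17 epithelial markers 0 were separate (median -0.18, and -0.63 without the macrophage-rich arrays), with KRT8 at -1.17 ± 1.03 and KRT19 at -1.72 ± 1.39 (-0.34 and -0.49 without those arrays). Of 13 red blood cell and platelet markers 0 were separate, with the haemoglobin gene HBB at -1.61 ± 1.23 (-1.04 without those arrays). Of 13 oocyte markers 2 were separate, ZP4 by 0.37 ± 0.07 and MOS by -0.35 ± 0.11, and 1 of the 3 MOS probes was higher. At an unadjusted p under 0.05, 2 oocyte markers were higher (15.4%, against 5.83% of all genes) and 2 lower (15.4%, against 7.11%).

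**Figure D5:**
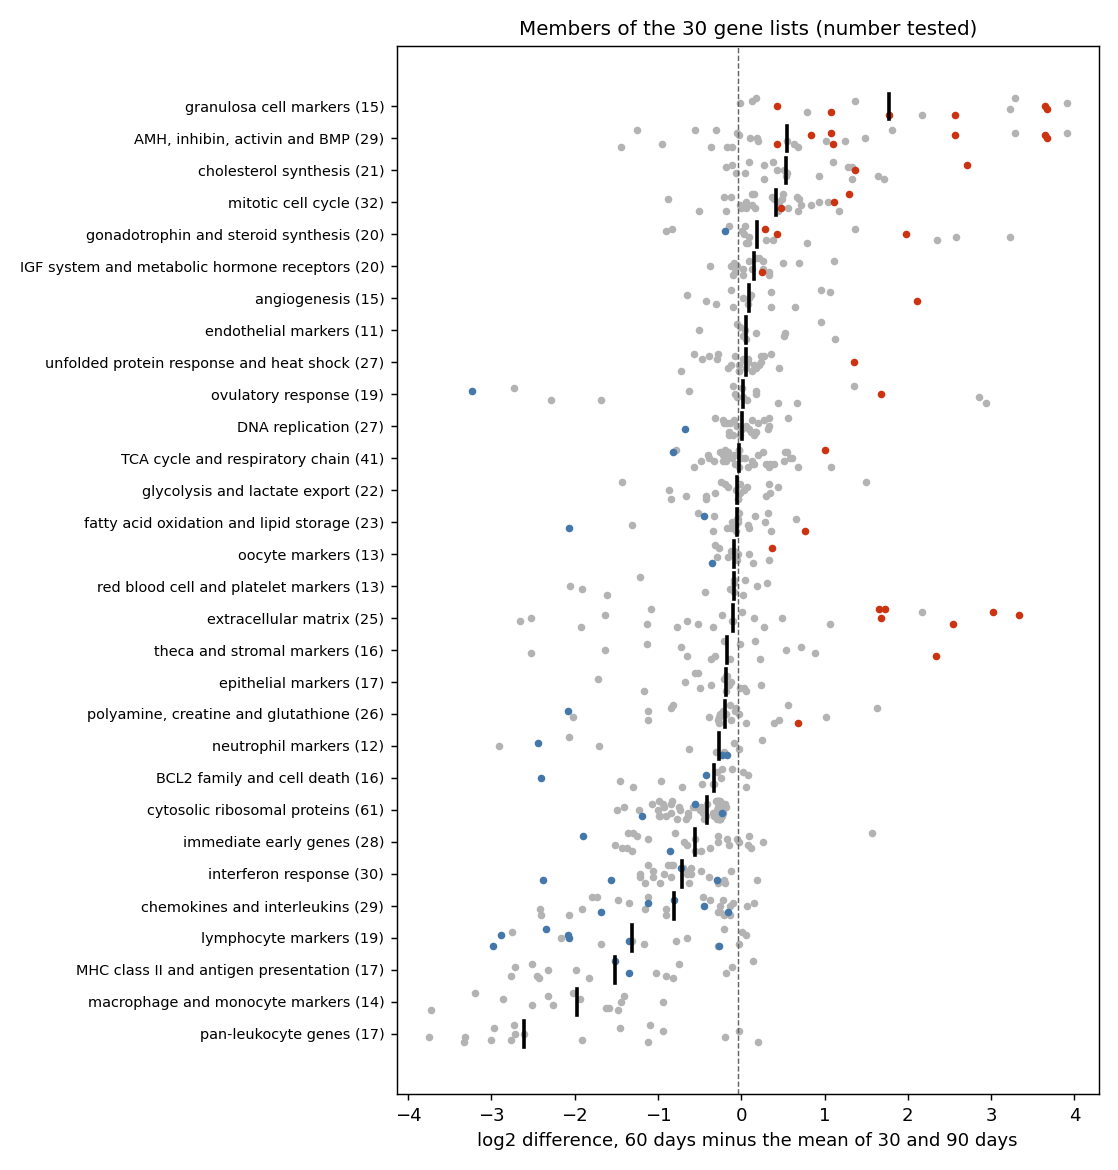
Log2 difference of 60 days minus the mean of 30 and 90 days (horizontal axis) for each tested member of 30 gene lists, with the number tested in brackets. Black bars are list medians, the dashed line is the median of all genes (-0.03), red and blue points are genes whose 60-day arrays lie all above or all below the 6 others, and grey points overlap. Medians run from -2.61 for pan-leukocyte genes to 1.77 for granulosa cell markers.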

How the data were processed

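Each of 9 bovine arrays gave mean and median pixel intensities of 45220 spots in Cy5 and Cy3, which the authors deposited without background subtraction or normalisation, as tested on the files. Per the labels, cells were spun and washed in PBS, and RNA was extracted with PicoPure, amplified by 2 T7 rounds, coupled to ULS dyes and hybridised to Agilent slides. The sources used here do not name the scanner or its software. The deposited log2 value table of the authors has columns that did not match their own arrays and was used for a check only.

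Mean intensities were corrected with normexp (offset 50) and normalised by loess within each array, control spots having weight 0, in limma 3.58.1 under R 4.3.3. Files were read with the data.table package, version 1.17.8, and figures drawn with matplotlib 3.10.9. The fit took 38823 of 43794 probes (88.6%), those over the mean plus 2 SD of the 153 negative controls in Cy5 or Cy3 on 3 or more arrays. The platform annotation named 21790 probes by 1 symbol and left 22004 unnamed. Each of 14281 genes was represented by its brightest probe. Of 15229 symbols, 15096 were found in RefSeq (ARS-UCD2.0). Of 739 list genes 651 were tested.

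One limma model (lmFit and eBayes, 6 residual degrees of freedom) had 1 coefficient per day over the 9 arrays. P-values were adjusted by Benjamini-Hochberg over all probes, with a threshold of 0.05. SE is the model's standard error. The number of arrays limits the precision. The median Cy5 signal of an array lay between 127.5 and 450.3 and the median Cy3 signal between 239.6 and 529.7, and 29.8% to 82.3% of probes in Cy5 and 20.9% to 84.2% in Cy3 were above the control spots. The lowest share was that of 30 days replicate 1 in Cy5 and of 60 days replicate 3 in Cy3. The script was tested on simulated data.

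The contrast and the gene lists were chosen with earlier results of these data known. The rule for named genes took the 5 smallest p in each direction (no gene passed), up to 4 smallest-p members of each list, the 2 brightest of each cell type list, and LHCGR, FSHR, AMH, INHBA, CYP19A1, CYP11A1, STAR, HSD3B1, IGF1 and VEGFA. POLE, which met the rule, was below background in Cy5 on all 9 arrays and has no value here. The alternatives tried were other background corrections, normalisations, filters, pixel summaries, blocks, weights and moderation, fewer arrays and the mean of all probes of a gene. The 120-day RNA block and the fit without the 3 macrophage-rich arrays were chosen after the data had been seen.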

Additional observations from a re-analysis of the deposited data

Results flagged for a closer look

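For 4 named genes all arrays of 30 days lay below the 120-day level and all arrays of 90 days above it. This was seen for 415 of 14281 genes in one direction or the other. The difference between 90 and 30 days was 1.68 for CFD, the complement protease, and 0.73 for COX4, the cytochrome c oxidase subunit. It was 0.21 for MCM10, a replication factor, and 0.13 for TIE1, an endothelial receptor. No probe passed for 90 against 30 days, with an adjusted p of 0.755 for CFD, 0.391 for COX4, 0.823 for MCM10 and 0.860 for TIE1. The 120-day spot of TIE1 was not above background on any array, so its side of that level has little weight.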

How the results depend on the processing

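With 9 arrays the threshold was reached by few probes under any alternative run, and at most 6 passed by adjusted p. The 120-day RNA as a block (arrays joined by the correlation of their Cy3 signals, r = 0.962 to 0.986 within sets and 0.881 to 0.952 between) gave 6 probes, 4 genes by their main probe, 2 probes against a single day and 1 gene past in both, UBD. Leaving out 1 array gave 0 to 2 probes and genes for the contrast, 0 to 1 probe against single days and 0 to 1 between 90 and 30 days. The 2 came without 30 days replicate 1 and were CFD and PHACTR2. Median centring gave 1 probe against a single day and 1 between 90 and 30 days, and array weights 1 against a single day. An unadjusted p under 0.05 with a 1.5-fold change gave 1427 probes. The 5052 probes at an unadjusted p under 0.05 became 2565 without background correction, 2430 with median pixels, 1922 without the macrophage-rich arrays and 3116 to 5611 without 1 array, the lowest without 60 days replicate 1, and 3172 without 60 days replicate 3. The 420 genes above and 649 below the other days became 225 and 269 without background correction, 192 and 258 with median pixels, 906 and 1230 without the macrophage-rich arrays, and 454 to 949 and 693 to 1550 without 1 array, where fewer arrays make separation easier. The higher ends came without 60 days replicate 2. Median centring gave 287 above and 580 below. Of the named genes 10 changed sign somewhere. Without the macrophage-rich arrays ACTA2 was 0.82, ENG 0.30, GZMB -0.028 and IGF1 0.080. With median pixels ELF3 was 0.012, EPB42 -0.26, ERN1 0.14, GZMB -0.17 and STAR -0.052, and with median centring ACTA2 was 0.00459. Without 1 array GP1BA ran from -0.062 to 0.68, GZMB -0.39 to 0.38, IGF1 -0.15 to 0.031, LTF -1.30 to 1.78 and STAR -0.75 to 1.16. The cause of these shifts was not tested. The replicate number as a block called 0 probes, with 3893 at an unadjusted p under 0.05. Arrays of the same number deviated together in 4 of 9 pairs (r above 0.1, range -0.688 to 0.510). Among these were all pairs of 30 with 60 days (r = 0.340, 0.510 and 0.382). The inferred 120-day RNA sets differ from the numbers only by an exchange of replicates 1 and 2 of 90 days. Within the sets 8 of 9 pairs were above 0.1 (r = -0.295 to 0.577). Whether the numbers pair the samples is therefore not settled. Dim 120-day spots limit ratios such as those of LHCGR, COL4A2 and ZP4.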

Other observations

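With the 120-day RNA as a block, an alternative chosen after the data had been seen, 6 probes passed, and the genes are named here after their values were seen. UBD, a ubiquitin-like protein induced by interferon gamma and tumour necrosis factor, had -7.40, -2.89 and -5.29 at 60 days. It had -3.03, 1.29 and -1.57 at 30 days and 1.74, -2.19 and -0.38 at 90 days. These days overlapped, since 30 days replicate 1 was lower than 60 days replicate 2, and the difference was -4.50 ± 1.37 (limma adjusted p = 0.317). With the block it was -4.50 ± 0.15 (adjusted p = 0.00984), and UBD passed against 30 days (-4.09, adjusted p = 0.0368) and against 90 days (-4.91, adjusted p = 0.0134). The other calls were TMSB4X by both probes (-1.54 each, adjusted p = 0.0424 and 0.0480), VAMP5, a vesicle protein (-1.26, 0.0424), EXTL2, a heparan sulphate enzyme, by one of its probes (1.24, 0.0424), and C16orf5 (0.94, 0.0480). The block joins 30 days replicate 1, 60 days replicate 1 and 90 days replicate 2, then 30 days replicate 2, 60 days replicate 2 and 90 days replicate 1, then replicate 3 of each day. That each set shares 1 RNA is inferred from the Cy3 signals. Arrays of a set deviated together from their day means in 8 of 9 pairs (r above 0.1, range -0.29 to 0.58), and the Cy3 signal is the denominator of each ratio.

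PHACTR2, a regulator of protein phosphatase 1 that passed when 30 days replicate 1 was left out (-1.91, adjusted p = 0.0208), had -0.08, -0.12 and -0.02 at 60 days. It had 0.55, 3.05 and 3.36 at 30 days and 0.57, 0.39 and 0.45 at 90 days. Its Cy5 spot was not well above background on any array at 60 days and was on all 6 others, so its difference has no firm size, and over the 9 arrays it did not pass (adjusted p = 0.358).

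The columns of the authors' deposited value table were compared with log2 ratios between any of the channels in the array files. No column was most like the ratio of its own array, with r of -0.713 to 0.692 over probes. The closest ratios reached r of 0.830 to 0.964 and joined channels of different arrays in 6 of 9 columns. None of them used the Cy5 channel of a 30-day array or of 60 days replicate 3.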
